A study of Ambystoma mexicanum with 8 samples.

Results

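The transcripts described here are 200 mRNA transcripts of the axolotl forelimb that were high 3 days after amputation (3 dpa) and low both before amputation and at 14 dpa. The axolotl (*Ambystoma mexicanum*) regrows an amputated limb from a blastema, a mound of dividing, undifferentiated cells under the wound epidermis. The mRNA libraries compared were made from polyA+ RNA of forelimbs of Ambystoma Genetic Stock Center animals, with 1 library each for 0 dpa (uninjured limb), 3 dpa, 6 dpa and 14 dpa. All limbs were cut through the mid-zeugopod, the lower arm, under MS222 anesthesia, and each library was made from several tissues pooled. Strain, age and genotype of the animals are not given in the sources used here. Since each stage was sequenced once, no spread between replicates can be given, no difference was tested, and every value below describes these 4 libraries.

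Members were chosen by their levels at 0, 3 and 14 dpa. Reads were scaled to the total of their library, as counts per 1000000 reads (cpm). Of 90099 transcripts, those of the components under 4 assembly identifiers named by the rule were left out. Of the rest, 5237 had 1000 reads or more at 3 dpa, and these are called candidates. Each candidate was given a score, the log2 of its level at 3 dpa over the higher of its levels at 0 and 14 dpa, with 0.5 cpm added to both, and the 200 with the largest scores are the members. The scores of the members ran from 2.59 to 8.98 with a median of 3.58, and the other 5037 candidates had a median of -0.18. The last 3 transcripts inside the limit scored 2.61, 2.60 and 2.59, while the first 3 outside scored 2.58, 2.58 and 2.57, so the limit cuts through a continuous range. The first transcript outside is named *rnaset2*, for a secreted and lysosomal ribonuclease, and it had 4.98, 32.2, 24.1 and 4.95 cpm at 0, 3, 6 and 14 dpa. Of the 8 transcripts in the left-out components with enough reads, 4 scored as high as members, among them the gelatinase *mmp9* with 15.2, 5139, 1744 and 19.6 cpm at 0, 3, 6 and 14 dpa.

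The first days after amputation are a time of wound closure and inflammation. Neutrophils and macrophages enter the stump, epidermal cells migrate over the cut, and proteases from leukocytes, epidermis and stromal cells break down collagen, laminin and mineralised matrix around the plane of amputation. Interleukins signal to these cells, fibronectin forms a provisional matrix, and multinucleated osteoclasts, which derive from the same precursors as macrophages, resorb the ends of the cut bones. In bulk tissue, fewer cells of a type and less RNA per cell cannot be told apart.

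Only a minority of the members carry a gene name. Names come from tables that pair transcripts of the assembly with zebrafish genes or with protein hits, and 32 of the 200 members were named by their own identifier, under 20 different names. A further 7 share a component, the assembly's unit for transcripts built from overlapping sequence, with a named transcript, and 161 have no name. Of the 32, 29 are in a table of transcripts listed for being higher at 6 dpa than at 0 dpa. Their levels at 6 dpa relative to 0 dpa are therefore not independent evidence of direction. Listing there also required a matching zebrafish gene that rose in the regenerating caudal fin. A rise in zebrafish thus took part in which members have a name. No genome position is held for these transcripts, and a zebrafish name does not show which of several related axolotl genes a transcript belongs to.

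The median member had 3.08, 63.04, 31.7 and 3.69 cpm at 0, 3, 6 and 14 dpa. The median other candidate had 39.0, 54.9, 57.0 and 57.1 cpm at these stages. All 200 members together took 25910 reads, or 0.170% of the library at 0 dpa (95% exact Clopper-Pearson interval 0.168 to 0.172). At 3 dpa they took 1109938 reads, or 3.01% (3.00 to 3.01). At 6 dpa they took 318820 reads, or 1.67% (1.67 to 1.68), and at 14 dpa 32980 reads, or 0.177% (0.176 to 0.179). These intervals, like the others given here, cover counting error only, and reads amplified by PCR are not independent molecules. The reads are unevenly spread: at 3 dpa, 1 fibronectin transcript took 13.2% of all reads of the members and the 10 most abundant members took 38.5%.

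**Figure D1:**
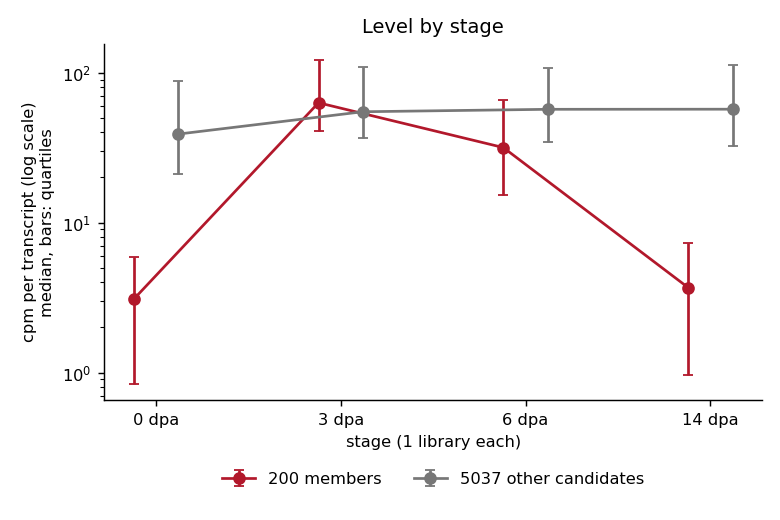
Level per transcript in cpm on a log scale at 0, 3, 6 and 14 dpa, with 1 library per stage (stages are evenly spaced); points are medians and bars the quartiles over 200 members and over 5037 other candidates. The members' median stands at 31.7 cpm at 6 dpa, against 63.04 cpm at 3 dpa, and lies below 4 cpm at 0 and 14 dpa, a shape that the choice of members fixes except at 6 dpa.

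The level at 6 dpa, when the blastema forms, is the only one of the 4 that the choice of members did not use. Of the 200 members, 105 (52.5%) were lower at 6 dpa than at 3 dpa by 2-fold or more, which compares with 10.4% of all candidates. The median log2 ratio of 6 dpa over 3 dpa was -1.09 over the members (lowest -8.98, highest 1.03) and -0.09 over all candidates. Of the members, 47 were lower by 4-fold or more, 94 lay within 2-fold of their 3 dpa level, and 1 was higher by 2-fold or more. Of the other candidates, 2.82% were lower by 4-fold or more, 87.0% within 2-fold and 4.33% higher by 2-fold or more. These ratios share the 3 dpa level with the score, so they are not independent of the choice of members.

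At 6 dpa nearly all members were still above their level in the uninjured limb. Of the 200 members, 187 (93.5%) were higher at 6 dpa than at 0 dpa by 2-fold or more, against 34.2% of all candidates, and the median log2 ratio was 3.04 over the members and 0.63 over all candidates. Here the 0 dpa level is shared with the score. Of the members, 193 were higher at 6 dpa than at both 0 and 14 dpa, and 177 had their highest level of the 4 stages at 3 dpa. Of the other candidates, 34.6% and 29.9% were so, and the choice of members favours a highest level at 3 dpa. The other 23 members were higher still at 6 dpa, so that for them the peak of the sampled stages is at 6 dpa. Of the other candidates, 44.6% were higher at 6 dpa than at 3 dpa.

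**Figure D2:**
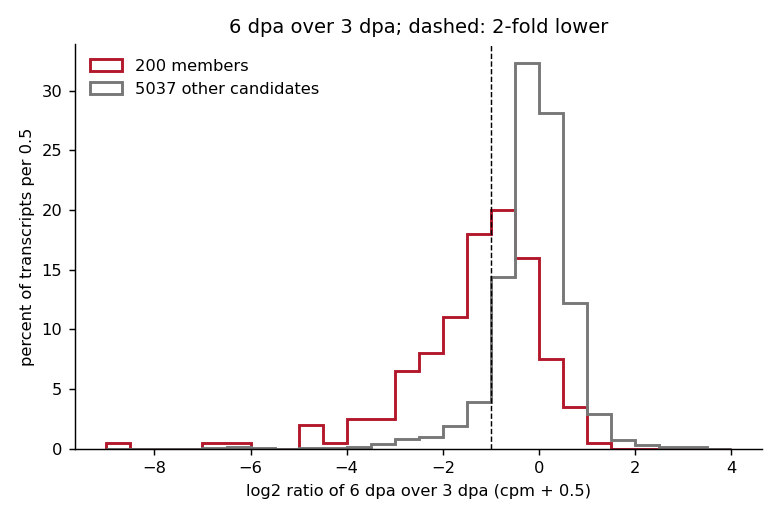
Histogram of the log2 ratio of 6 dpa over 3 dpa (0.5 cpm added) for the 200 members and the 5037 other candidates, as percent of transcripts per bin of 0.5; the dashed line marks a level lower by 2-fold. The members' median lies at -1.09 and 105 of 200 lie at or left of the dashed line, while the other candidates centre near 0.

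Scaling shifts these values. With trimmed-mean scaling of the libraries (TMM) in place of total reads, the log2 ratio of 6 dpa over 3 dpa moves by -0.30 and that of 6 dpa over 0 dpa by -0.50 before the 0.5 cpm is added, and by less for transcripts at low levels once it is added. The members' medians were then -1.39 and 2.58, with 128 members lower at 6 dpa than at 3 dpa and 176 higher than at 0 dpa by 2-fold or more, against 16.9% and 19.5% of all candidates. Relative to the median of all candidates, the members' ratio of 6 dpa over 3 dpa was -1.01 under total reads and under TMM. A scaling moves members and candidates by nearly the same amount, so these equal values were fixed in advance. They do not show how far the result depends on the scaling. The members that were higher at 6 dpa than at 3 dpa numbered 11 under TMM and 12 under the upper quartile, in place of 23, and none was then higher by 2-fold. The other 5037 candidates fell as well, to 1324 under TMM and 1605 under the upper quartile, in place of 2247. Those of them higher by 2-fold or more numbered 107 and 137, in place of 218.

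The most frequent name among the members is that of collagenase 3, a secreted metalloproteinase that cuts fibrillar collagen. Zebrafish have a pair of such genes, *mmp13a* and *mmp13b*, and 11 members in 8 components carry one of the names, 5 of them *mmp13a* and 6 *mmp13b*. Added up, the 11 had 40.9, 2823, 1033 and 66.8 cpm at 0, 3, 6 and 14 dpa. Reads of near-identical transcripts can be split among them by the counting, so the single values are less certain than the sum, and which axolotl collagenase each one is was not resolved.

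Among those named *mmp13a*, the transcript with the most reads at 3 dpa had 124, 21944, 5242 and 98 reads at 0, 3, 6 and 14 dpa. Its level at 6 dpa was 46.3% of that at 3 dpa (95% interval 44.9 to 47.7). The second transcript of the same component had 136, 17146, 5796 and 0 reads at the same stages, and its 6 dpa level was 65.5% of the 3 dpa level (63.6 to 67.5). Both were low at 0 and 14 dpa, and much of their level was kept at 6 dpa. A separate component named *mmp13a* behaved otherwise, with 0, 3642, 52 and 0 reads at 0, 3, 6 and 14 dpa. It was at least 501-fold higher at 3 dpa than at 0 dpa, counting 3 reads as the floor of a library at 0, and at 6 dpa only 2.77% of its 3 dpa level was left (2.06 to 3.64). The remaining *mmp13a* members, with 2644 and 1599 reads at 3 dpa, kept 73.9% (68.7 to 79.5) and 72.5% (65.9 to 79.7) of that level at 6 dpa. Transcripts under 1 name thus ran from nearly gone to mostly kept.

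The *mmp13b* members were lower at 6 dpa in most cases. A transcript of that name in a left-out component scored 6.52 and was no member. It had 21.3, 2765, 1516 and 29.7 cpm at 0, 3, 6 and 14 dpa, more at each of these stages than any *mmp13b* member. Of the members, the one with the most reads had 222, 22285, 2280 and 452 reads at 0, 3, 6 and 14 dpa. Of its 3 dpa level, 19.8% was left at 6 dpa (18.99 to 20.7). The second transcript of that component had 0, 15013, 759 and 171 reads, with 9.80% left (9.10 to 10.5). By its own reads alone, its 3 dpa level was at least 2066-fold that at 0 dpa. The component as a whole had 14.6, 1010, 160 and 33.5 cpm at 0, 3, 6 and 14 dpa, so that fold depends on how reads were split within it. Another component held a transcript with 16, 5826, 578 and 0 reads and 19.2% left (17.6 to 20.9), beside one with 75, 9427, 2732 and 369 reads and 56.2% left (53.8 to 58.6). Transcripts of 1 component thus kept different shares of their level. Transcripts alone in their components had 0, 3321, 598 and 26 reads with 34.9% left (32.0 to 38.1), and 0, 1411, 37 and 0 reads with 5.08% left (3.56 to 7.04). Over all 11 collagenase members the median share left was 34.9%, 7 were lower by 2-fold or more and 5 by 4-fold or more. Under TMM and under the upper quartile 8 were lower by 2-fold or more.

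Cathepsin K, the lysosomal cysteine protease with which osteoclasts dissolve bone collagen, took the second most reads of any member at 3 dpa. The transcript *ctsk* had 289, 46234, 25789 and 190 reads at 0, 3, 6 and 14 dpa, which is 18.95, 1252, 1354 and 10.2 cpm. It was 66.1-fold higher at 3 dpa than at 0 dpa and 122-fold higher than at 14 dpa. Its level at 6 dpa was 108% of that at 3 dpa (106 to 110) when libraries were scaled by total reads, but its log2 ratio of 0.11 became -0.18 under TMM and -0.07 under the upper quartile. Under each of these scalings it stayed within 2-fold of its 3 dpa level. Transcripts of another component named *ctsk* were no members, with scores of 2.31 and 1.20. The first had 141, 699, 542 and 82.0 cpm at 0, 3, 6 and 14 dpa. The second had 67.7, 556, 1494 and 241 cpm, so it was highest at 6 dpa, with a log2 ratio of 6 dpa over 3 dpa of 1.42.

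The inhibitor *timp2a*, which blocks metalloproteinases and takes part in activating one of them, had 1560, 39298, 6534 and 696 reads at 0, 3, 6 and 14 dpa. At 6 dpa 32.2% of its 3 dpa level was left (31.4 to 33.1). A second transcript of that name in a different component was no member, with a score of 1.37.

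**Figure D3:**
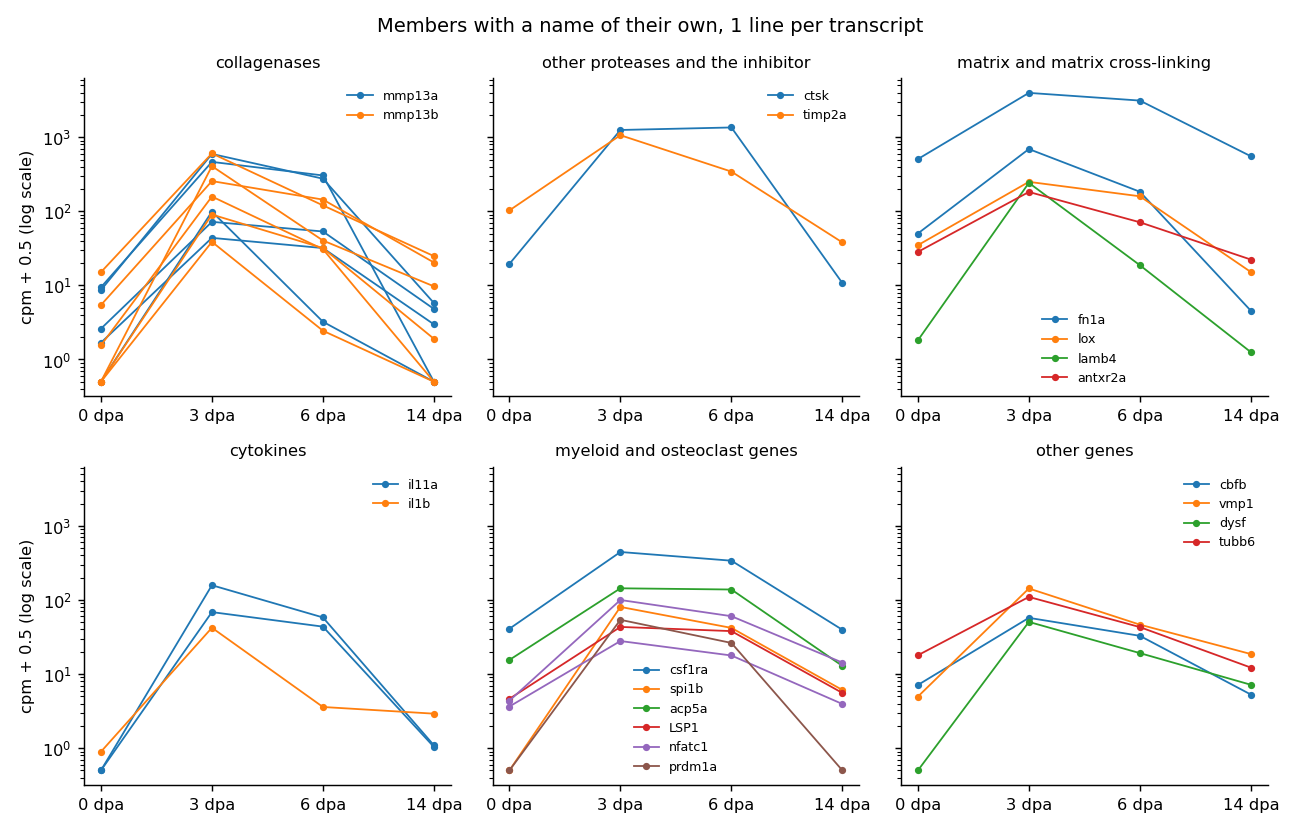
Levels (cpm + 0.5, log scale) at 0, 3, 6 and 14 dpa of the 32 members named by their own identifier, 1 line per transcript and 1 colour per name, in 6 panels by the role of the gene; 1 library per stage. The collagenase lines spread apart at 6 dpa, where they run from 2.77% to 73.9% of their 3 dpa level. The lines of *ctsk*, *acp5a*, *LSP1* and *csf1ra* lie between 76.3% and 108%. Those of *prdm1a*, *spi1b* and *nfatc1* lie between 48.2% and 63.2%, inside the collagenase range.

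Matrix genes among the named members were few but took many reads. Fibronectin, the glycoprotein that cells grip in the provisional wound matrix, gave 2 members of 1 component. The major *fn1a* transcript had 7719, 146534, 59497 and 10267 reads at 0, 3, 6 and 14 dpa, the most of any member, and kept 78.7% of its 3 dpa level at 6 dpa (78.0 to 79.5). The minor one had 757, 25552, 3489 and 75 reads and kept 26.5% (25.5 to 27.4). The pair thus shared a high point at 3 dpa but not the course after it: at 14 dpa the major transcript, at 553 cpm, was close to its uninjured level of 506 cpm, and the minor one, at 4.04 cpm, was below its uninjured level of 49.6 cpm. Fibronectin transcripts differ by alternative splicing in vertebrates, and whether these 2 do was not determined, since no sequence of the assembly was used.

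Lysyl oxidase (*lox*), which cross-links collagen and elastin fibres, had 524, 9207, 3028 and 272 reads at 0, 3, 6 and 14 dpa, and kept 63.8% of its 3 dpa level at 6 dpa (61.2 to 66.4). The laminin chain *lamb4*, a basement membrane component, had 20, 8921, 347 and 14 reads, and only 7.54% was left at 6 dpa (6.75 to 8.40). The other transcript of the *lamb4* component had 67.6, 196, 178 and 163 cpm at 0, 3, 6 and 14 dpa and was no member. Both were higher at 3 dpa than at 0 dpa, and the lower level at 6 dpa was that of the member. The receptor *antxr2a*, a cell surface protein that binds basement membrane collagen and laminin, had 424, 6721, 1345 and 405 reads and 38.8% left (36.6 to 41.1).

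The cytokines among the named members are *il11a* and *il1b*. Interleukin 11 belongs to the interleukin 6 family and signals through the shared receptor gp130. Its 2 transcripts, the whole of 1 component, had 0, 5829, 1098 and 11 reads and 0, 2517, 823 and 10 reads at 0, 3, 6 and 14 dpa. Both were listed at 0 reads in the uninjured limb, and at 3 dpa the first was at least 802-fold and the second at least 346-fold higher, with 3 reads as the floor. At 6 dpa the first kept 36.5% (34.2 to 39.0) and the second 63.4% (58.5 to 68.6) of the 3 dpa level.

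Interleukin 1 beta is an early signal of macrophages and neutrophils. The *il1b* member had 6, 1541, 59 and 45 reads at 0, 3, 6 and 14 dpa, with 7.42% of its 3 dpa level left at 6 dpa (5.62 to 9.63). It made up 36.5% of the reads of its component at 3 dpa, and the component as a whole scored 1.38. Summed, the component had a log2 ratio of 6 dpa over 3 dpa of -1.38, and the *il11a* component had -1.16. A transcript of a second component named *il1b* scored 0.74 and was no member, with 16.4, 27.7, 23.6 and 15.4 cpm at 0, 3, 6 and 14 dpa. In the component of the member, a transcript with no name of its own was also lower, with 3, 601, 62 and 14 reads. The low level at 6 dpa was thus not that of every transcript named *il1b*.

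Several members are genes of macrophages, granulocytes or osteoclasts. The receptor for colony-stimulating factor 1, on which macrophages depend, is *csf1ra*, with 616, 16408, 6455 and 726 reads at 0, 3, 6 and 14 dpa and 76.3% of its 3 dpa level left at 6 dpa (74.1 to 78.5). The tartrate-resistant acid phosphatase of osteoclasts and some macrophages, *acp5a*, had 229, 5295, 2630 and 230 reads and 96.3% left (91.9 to 100.9). The other *acp5a* transcript of its component was no member. It had 7.61, 145, 224 and 31.0 cpm at 0, 3, 6 and 14 dpa, higher at 6 dpa than at 3 dpa. The leukocyte actin-binding protein *LSP1* had 63, 1581, 715 and 94 reads and 87.7% left (80.2 to 95.8). All 3 members were within 2-fold at 6 dpa and close to their uninjured level at 14 dpa. The log2 ratio of 6 dpa over 3 dpa was -0.39 for *csf1ra*, -0.05 for *acp5a* and -0.19 for *LSP1*. Under TMM these became -0.69, -0.35 and -0.48, still within 2-fold but outside the counting intervals. For *LSP1* the member holds only 5.81% of the reads of its component at 3 dpa, and that component scored 0.94.

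Named members for transcription factors of these lineages came from 3 genes. The osteoclast regulator *nfatc1* gave 2 members of 1 component, with 59, 3676, 1142 and 256 reads and with 48, 1013, 330 and 64 reads, of which 60.2% (56.3 to 64.4) and 63.2% (55.6 to 71.6) was left at 6 dpa. A further *nfatc1* transcript of that component was no member, with 11.8, 63.8, 22.7 and 11.8 cpm at 0, 3, 6 and 14 dpa. The myeloid factor *spi1b*, also called PU.1, had 0, 2959, 791 and 104 reads, with 51.8% left (47.8 to 56.1). The repressor *prdm1a*, known as Blimp-1 and active in several blood and epithelial lineages, had 0, 1978, 492 and 0 reads, with 48.2% left (43.6 to 53.2). This member held 27.6% of the reads of its component at 3 dpa. The other transcript there, also named *prdm1a*, was no member, with 3.02, 141, 90.8 and 31.2 cpm at 0, 3, 6 and 14 dpa. Grouped by role, 6 of the 7 members for myeloid and osteoclast genes were within 2-fold of their 3 dpa level at 6 dpa, against 47.0% of all members and 85.4% of all candidates. Under TMM, 4 of the 7 were, against 36.0% of the members and 81.0% of the candidates. The roles were assigned after the values were known, and the difference was not tested. Most named members were listed for a higher level at 6 dpa than at 0 dpa. The 6 dpa level thus took part in which members could be given a role, but not in the choice of all members.

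The *spi1b* value is that of 1 transcript in a component of 11. The component as a whole had a score of -1.06, and other transcripts in it were high at 0 dpa, the largest with 107 cpm at 0 dpa and 5.71 cpm at 3 dpa. Whether those belong to the same gene was not determined. A further *spi1b* transcript of the component that was no member had 10.1, 34.5, 31.9 and 4.36 cpm at 0, 3, 6 and 14 dpa. It too was highest at 3 dpa, but its log2 ratio of 6 dpa over 3 dpa was -0.11, against -0.94 for the member.

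The remaining named members have no shared role. The RUNX partner *cbfb* had 101, 2103, 616 and 89 reads at 0, 3, 6 and 14 dpa, with 56.8% of the 3 dpa level left at 6 dpa (51.8 to 62.2). A *cbfb* transcript of the same component that was no member had more reads at 3 dpa, with 0, 75.6, 21.4 and 14.9 cpm at these stages. The autophagy membrane protein *vmp1* had 68, 5268, 876 and 337 reads, with 32.2% left (29.98 to 34.6). The membrane repair protein *dysf* had 0, 1851, 356 and 124 reads, with 37.3% left (33.2 to 41.8). Dysferlin is best known from skeletal muscle. The member is 1 of 24 transcripts of its component, which scored 0.55, and another transcript named *dysf* in it had 246, 0, 446 and 83 reads at 0, 3, 6 and 14 dpa. The beta-tubulin *tubb6* had 266, 4045, 811 and 218 reads, with 38.9% left (36.0 to 41.9).

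Members named only through another transcript of their component were those of *spi1b*, *yrk*, *creld2*, *havcr1* and, with 3 members, the uncharacterised *zgc:92061*. The one beside *spi1b*, in a component separate from that above, had 29, 1488, 340 and 10 reads and 44.3% left at 6 dpa (39.3 to 49.9). The one beside the kinase *yrk* had 25, 1061, 85 and 64 reads with 15.5% left (12.3 to 19.4). The member beside *creld2*, a gene of the endoplasmic reticulum, had 40, 1148, 57 and 79 reads with 9.63% left (7.24 to 12.6), while the transcript that carries the name had 3.80, 15.6, 20.6 and 29.3 cpm at 0, 3, 6 and 14 dpa, higher at each later stage. The one beside *havcr1* had 83, 1618, 569 and 122 reads with 68.2% left (61.9 to 75.1).

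**Figure D4:**
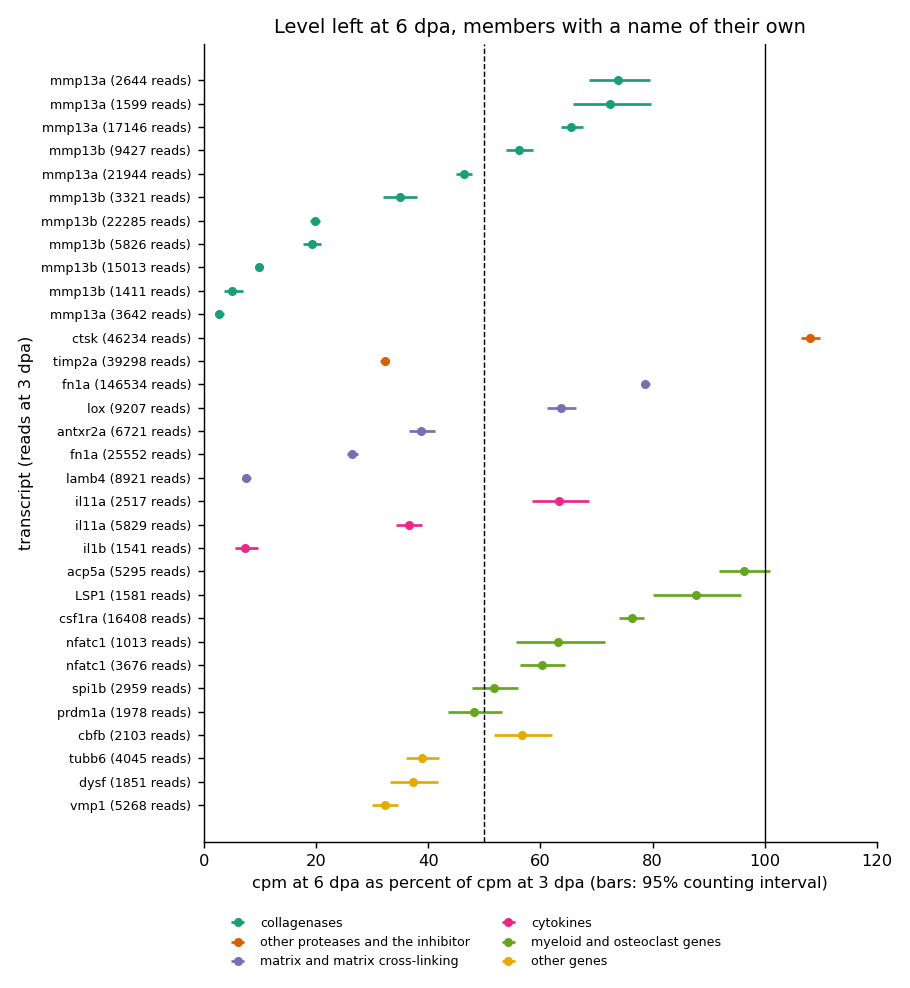
Level at 6 dpa as percent of the level at 3 dpa for the 32 members named by their own identifier, grouped by role, with 95% counting intervals as bars and reads at 3 dpa in parentheses; the solid line marks 100% and the dashed line a level lower by 2-fold. The *ctsk* point lies at 108%, *acp5a* at 96.3% and *LSP1* at 87.7%, while *il1b*, *lamb4* and 1 *mmp13a* transcript lie under 8%.

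The members with no name included some of the highest scores. The second highest, comp41507_c0_seq1, had 2, 8509, 300 and 6 reads at 0, 3, 6 and 14 dpa, with 6.84% of its 3 dpa level left at 6 dpa (6.07 to 7.67). The fifth highest, comp13981_c0_seq1, had 67, 29408, 2830 and 84 reads, with 18.7% left (17.9 to 19.4). Both are alone in their components. The third highest, comp40817_c0_seq5, had 0, 6228, 4699 and 2 reads and a 6 dpa level of 146% of that at 3 dpa (141 to 152), and its component of 5 transcripts scored -0.11. The member with the largest ratio of 6 dpa over 3 dpa was comp40867_c0_seq2, with 0, 1454, 1544 and 0 reads and a level at 6 dpa of 206% of that at 3 dpa (192 to 221). The median log2 ratio of 6 dpa over 3 dpa was -1.07 over the 32 members with a name of their own and -1.10 over the other 168, with 17 and 88 of them lower by 2-fold or more.

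At the low end of the same ratio, 3 members had 0 reads at 6 dpa, with 9318, 2078 and 1195 reads at 3 dpa. The first of them, comp36449_c0_seq6, has the highest score of all and belongs to the *zgc:92061* component. Its 9318 reads were 2.36% of the reads of that component of 15 transcripts at 3 dpa. The component as a whole had 20397, 10694, 14680 and 18846 cpm at 0, 3, 6 and 14 dpa, so its summed level was lowest at 3 dpa, the stage at which the single transcript was highest. The other 2 members of this component had 44, 15410, 9849 and 90 reads and 76, 1724, 165 and 30 reads.

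That case raised the question of how far members follow their whole component. The 200 members lie in 178 components, 17 of which hold more than 1 member and 1 of which holds 5. Of the 200 members, 85 are alone in their component, and for the other 115 the score of the summed component was computed. It reached the lowest score of a member in 65 of the 115 and was 1 or more in 93. It was below 1 in 22, and below 0 in 11 members of 8 components, among them *spi1b*, *zgc:92061* and comp40817_c0_seq5. With components summed, 84 of the 200 members were lower at 6 dpa than at 3 dpa by 2-fold or more, in place of 105. The share of all candidates with components summed is not given here. Members alone in their component had a median log2 ratio of 6 dpa over 3 dpa of -1.35, with 51 of 85 lower by 2-fold or more, and those sharing one had -0.95, with 54 of 115.

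**Figure D5:**
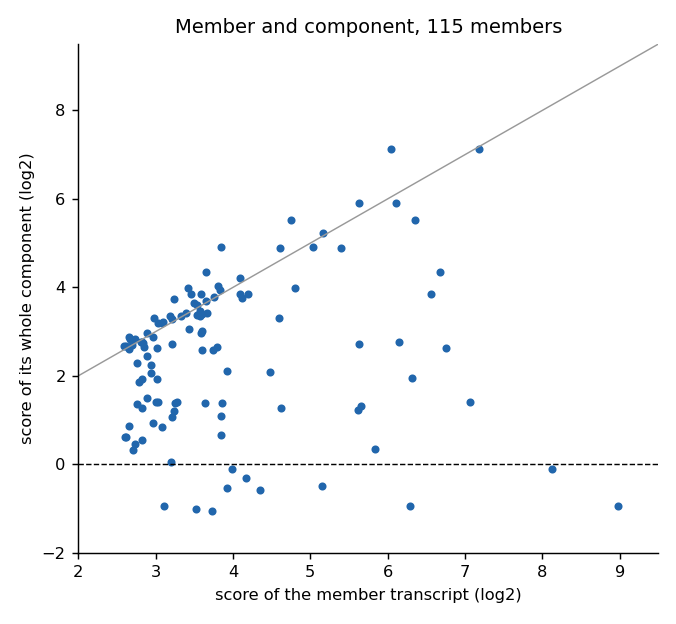
Score of the summed component against the score of the member transcript, both log2 of 3 dpa over the higher of 0 and 14 dpa, for the 115 members that share their component with other transcripts; the solid line marks equal scores and the dashed line a component score of 0. Points near the solid line follow their component, and 11 points lie below 0, the lowest at -1.06.

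Lists of genes for processes of the early stump show which named transcripts joined the members and which did not. Of all 5237 candidates, 13.3% scored 1 or more, which is a 2-fold higher level at 3 dpa than at both 0 and 14 dpa, and the median score was -0.15. The lists hold only transcripts that the tables name, and these tables are themselves selected for change, so the counts below describe the lists and test nothing.

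Matrix proteolysis and lysosomal proteases had 22 candidates, of which 13 were members and 19 scored 1 or more, with a median score of 3.77. Those that were no members include the asparaginyl protease *lgmn* with a score of 1.82 and the serine protease *htra1b* with 2.14. The summed level of the 36 transcripts named in this list was 1430, 17416, 11664 and 1561 cpm at 0, 3, 6 and 14 dpa. Unlike the counts of candidates and members, this sum includes transcripts of the left-out components. Among these, *mmp9* had 5139, *mmp13b* 2765 and *mmp14b* 846 cpm at 3 dpa. Wound matrix and adhesion had 31 candidates with 4 members, 18 that scored 1 or more and a median of 1.28. A left-out transcript of *serpinh1b*, a gene of this list, scored 3.00, as high as a member, and is not among these candidates. Below the members came *col12a1b* at 2.38, *plod2* at 2.35 and *tnc* at 1.71, for a fibril-associated collagen, a collagen hydroxylase and tenascin C, while all 4 transcripts of periostin (*postnb*) scored between -3.16 and -0.70.

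Leukocyte genes had 14 candidates with 5 members, 10 that scored 1 or more and a median of 2.12. The summed level of the 46 transcripts named in this list was 790, 1889, 1568 and 456 cpm at 0, 3, 6 and 14 dpa, and 8, 3, 4 and 9 of them were at 0 reads. Not all leukocyte genes took part to this degree: *cd74a*, of antigen presentation, scored 0.74, and *mafba*, a macrophage transcription factor, scored 0.94. Inflammatory signals had 13 candidates with 3 members, 5 that scored 1 or more and a median of 0.84. The prostaglandin synthase *ptgs2b* scored 1.96 and *il6st*, which is gp130 and the partner receptor of interleukin 11, had transcripts at 1.82 and 0.14. The summed leukocyte level was higher at 3 and 6 dpa than at 0 and 14 dpa. This sum includes the 5 members of the list, so its likeness to the members is in part fixed by their choice. The part of leukocytes in the members' levels was not tested.

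The other lists contributed 1 member in all. No member came from early-response transcription factors and regulators (14 candidates, median score 0.44), heat shock and endoplasmic reticulum chaperones (14, 0.13), wound epidermis and keratinocytes (12, -0.63), cell division (21, -0.66), glycolysis and hypoxia (7, -0.64), erythrocytes (1 candidate at 1.56) or cartilage and bone (2, -0.92). A score below 0 need not mean a level below the uninjured limb, since the higher of 0 and 14 dpa is the base. The 2 cartilage and bone candidates had opposite scores, *col2a1b* 1.80 and *col9a3* -3.64. The named transcripts of that list summed to 3107, 9239, 6490 and 2735 cpm at 0, 3, 6 and 14 dpa. Of this sum, *col2a1b* gave 9181 cpm at 3 dpa. The summed level of the named cell division transcripts was 428, 2002, 1603 and 3164 cpm at 0, 3, 6 and 14 dpa. For glycolysis and hypoxia it was 2099, 1933, 1476 and 1297 cpm, and for wound epidermis and keratinocytes 3401, 3519, 4668 and 3439 cpm. The latter sum joins opposite courses. The transcript with the protein hit K1C17, a keratin, had 5.05, 1267, 1531 and 705 cpm. That with the hit K1H2, also a keratin, had 506, 38.8, 316 and 101 cpm. Of the 65 transcripts named in this list, 4, 25, 25 and 27 were at 0 reads at 0, 3, 6 and 14 dpa. The skeletal muscle list had 12 candidates with a median of -1.46, 7 of them at -1 or less, and its 1 member is the *dysf* transcript. The summed level of its 73 named transcripts was 12330, 2670, 1171 and 583 cpm at 0, 3, 6 and 14 dpa, lower at each later stage, and its part in the members' levels was not tested.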

How the data were processed

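For each stage, the authors trimmed reads with Trimmomatic, assembled the 4 mRNA libraries de novo with Trinity, estimated reads per transcript with RSEM and used edgeR for their own comparisons; versions are not given in the sources used here. The deposited values are on a log2 scale and hold whole reads, not cpm: 2 raised to each value was whole within a relative deviation of 3.47e-09. A value of 0 may mean 0 or 1 read and was taken as 0. Of 93299 lines, 3200 repeats were dropped. Reads summed to 15249786, 36931886, 19049794 and 18581310 at 0, 3, 6 and 14 dpa, so the 3 dpa library was the deepest. The floor of 3 reads is 0.197, 0.0812, 0.157 and 0.161 cpm. The small RNA libraries were not used here.

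Levels were scaled to total reads, and 0.5 cpm was added before log2 ratios, except for single ratios, which are given without it and with exact 95% intervals. Because of 1 library per stage, a fold of 2 (log2 of 1) served as the call and no test was run. Names were taken from supplementary tables that were held in part, with no value read from them. The text names every member that these tables name, the 5 highest scores, the 3 transcripts on either side of the limit and the ends of the ratio of 6 dpa over 3 dpa, with at most 4 unnamed members by identifier. Other transcripts of the gene lists were named after their values were seen. The members and the gene lists were chosen with earlier results of these data known. Alternatives were TMM with the 0 dpa library as reference (trimming 30% of log ratios and 5% of mean levels), the upper quartile, 0.125 or 2 cpm added, a minimum of 500 or 2000 reads, a call of 0.58, summed components and an entry of 0 counted as 1 read. The code was tested on simulated data. Python 3.11.15, NumPy 2.4.6, pandas 2.3.3, SciPy 1.17.1 and matplotlib 3.10.9 were used.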

Additional observations from a re-analysis of the deposited data

How the results depend on the processing

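The count of members lower at 6 dpa than at 3 dpa by 2-fold or more ran from 84 (components summed) to 128 (TMM). That of members higher at 6 dpa than at 0 dpa by 2-fold or more ran from 176 (TMM) to 187. Under TMM, 16.9% and 19.5% of all candidates were so. A smaller call, a log2 of 0.58, gave 136 and 194 members. All these counts are within 1.5 times the value given. The shares of all candidates at the smaller call and with components summed are not given here. The median log2 ratio of 6 dpa over 3 dpa was -1.39 under TMM and -0.84 with components summed. The median log2 ratio of 6 dpa over 0 dpa was 2.58 under TMM, 2.70 under the upper quartile, 2.61 with 2 cpm added and 2.85 with components summed. TMM and the upper quartile rescale whole libraries. Adding 2 cpm in place of 0.5 makes ratios to low levels smaller, and summing components replaces each member's value with that of its whole component. Members alone in their component, a choice made after seeing the data, gave -1.35 and 2.99. Choosing the 200 again kept 189 members under TMM, 195 under the upper quartile, 198 with less and 196 with more cpm added than 0.5, 200 with an entry of 0 counted as 1 read, 114 with a minimum of 500 reads and 115 with a minimum of 2000 reads, where more or fewer transcripts compete for the same 200 places. A name of their own or of their component was held by 39 members. Under TMM and under the upper quartile, 38 of them kept the sign of their ratio of 6 dpa over 3 dpa. The exception was *ctsk*. With components summed, 36 kept the sign. The size of the ratio was less stable. Under TMM, 33 of the 39 lay outside the counting interval of their ratio and 6 inside. Under the upper quartile, 29 lay outside and 10 inside. With components summed, 26 lay outside, 11 inside, and 2 were reversed. The counting intervals thus do not cover the choice of scaling. With components summed, comp36449_c0_seq6 and comp36449_c0_seq1 took the value 0.46 of their component in place of a level lower by 2-fold or more. The *acp5a* member took the value 0.33 of its component in place of -0.05. No paired analysis was possible because each stage has 1 library, and for the same reason no replicate could be left out. A ratio to a library with under 10 reads, such as that of *il1b* at 0 dpa, rests on few reads.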
